A study of Homo sapiens with 18 samples.

Results

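LAMP3, PLAAT4, TRANK1, ZSWIM6 and PCDH20 are 5 genes that were more than 2-fold higher in T47D breast cancer cells after 3 days of induced G0S2 and lower again at day 15, and that were not among the 42 interferon-induced genes read beside them. The list of those genes was made without the 5, so their absence from it says nothing of whether interferon induces them. The 5 genes were chosen from their T47D values, so those values are given here as a description without a test. The MDA-MB-231 cells, which the choice did not use, are tested. All 5 were listed in both tables, among 14768 genes for T47D and 14308 for MDA-MB-231, with 12666 genes in both. Of the genes more than 2-fold higher at day 3 in T47D, 79 were found when G0S2 itself was left out, 73 of these were lower at day 15 than at day 3, and 51 of the 73 had a mean log2 CPM of 1 or more. These 51 comprised 33 genes of the interferon-induced list, the 5 genes and 13 others.

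T47D is an oestrogen receptor positive human breast cancer line and MDA-MB-231 an oestrogen receptor negative one. The 18 RNA-seq libraries covered 6 groups of 3. Each line was sampled without doxycycline at day 0 (control). Each was also grown for 3 or for 15 days with doxycycline (0.5 ug/ml) to switch on an introduced G0S2 gene. The labels do not say how the gene was introduced or whether a line was grown from a single clone. G0S2 encodes an inhibitor of the lipase that starts the breakdown of stored triglyceride. Lines given doxycycline but lacking the introduced gene were not analysed here, and whatever doxycycline or the construct did cannot be told apart from G0S2. The groups hold no library without doxycycline at day 3 or day 15, so time in culture cannot be told apart either. Nothing in the labels ties the 3 libraries of a group to separate cultures. Each p-value below therefore refers only to how far these libraries spread, and that spread may be technical.

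Interferons bind receptors at the cell surface, the receptor kinases activate transcription factors in the cytoplasm, and these enter the nucleus with IRF9 and switch on a large set of antiviral genes. LAMP3 encodes a lysosomal membrane glycoprotein best known as a marker of mature dendritic cells, and its transcript is also known to rise in the unfolded protein response. PLAAT4, also called RARRES3, encodes a phospholipase and acyltransferase first found as a retinoid-induced gene. TRANK1 encodes a large protein with tetratricopeptide and ankyrin repeats. ZSWIM6 encodes a protein with a SWIM-type zinc finger, known mainly from neural and facial development. PCDH20 encodes a protocadherin, a calcium-dependent adhesion protein of the cadherin superfamily, outside the gene clusters in which most protocadherins lie.

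The libraries held between 40.1 and 51.0 M reads on listed genes in T47D and between 37.0 and 52.4 M in MDA-MB-231. Levels below are CPM (read counts scaled to a common library size), with the small constant in the deposited log2 values removed. G0S2 in T47D lay between 0.277 and 0.900 CPM in control, between 844 and 883 CPM after 3 days, and between 736 and 993 CPM after 15 days. In MDA-MB-231 it lay between 25.02 and 25.5 CPM in control, between 1429 and 1506 CPM after 3 days, and between 1103 and 1294 CPM after 15 days. All 8 markers of T47D identity searched were listed in T47D, while ESR1, PGR, FOXA1 and TFF1 were not among the listed genes of MDA-MB-231. All 6 markers of MDA-MB-231 were listed in that line, and CD44 alone of them in T47D. Replicate 2 of T47D day 15 stood apart from the other 2 libraries of its group, with chi-square values per degree of freedom of 14.5 and 23.6 over genes, against 1.74 to 5.92 for every other pair of libraries in a group. Day 15 values of T47D are therefore also given without it.

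LAMP3 lies at chr3:183122213-183163839 on the minus strand (GRCh38, GENCODE) and its exons cover 3.816 kb. In T47D it had 10.8, 10.2 and 9.64 CPM in the 3 control libraries, 41.6, 43.5 and 44.8 CPM at day 3, and 21.0, 20.7 and 21.4 CPM at day 15. The 3 groups did not overlap, and the spread inside each was small beside the distance between them. The mean was 43.3 ± 1.63 CPM at day 3 and 21.0 ± 0.37 CPM at day 15, against 10.2 ± 0.60 CPM in control (SD, n = 3 each). The log2 fold against control was 2.07 at day 3 and 1.03 at day 15, each with an SE of 0.057, which are 4.21-fold and 2.05-fold on the scale of the deposited log2 values. LAMP3 showed the highest day 3 value of the 5 genes on this scale, and it kept 49.9% of its day 3 log2 fold at day 15.

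PLAAT4 lies at chr11:63536809-63546462 on the plus strand, where the annotation calls it RARRES3, and its exons cover 1.299 kb. In T47D it had 2.07, 1.74 and 2.28 CPM in control, 5.66, 4.84 and 4.84 CPM at day 3, and 3.30, 3.64 and 2.88 CPM at day 15. These levels rest on 88 to 254 reads a library, the fewest among the 5 genes in this line. No library of one group lay inside the range of another. Its log2 fold against control was 1.31 ± 0.129 at day 3 and 0.67 ± 0.129 at day 15 (SE), so 51.5% of the day 3 value was left. Without replicate 2 of day 15 the day 15 log2 fold was 0.60.

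TRANK1 lies at chr3:36826820-36945098 on the minus strand, with 12.174 kb of exons. In T47D it had 5.13, 4.85 and 4.78 CPM in control, 14.7, 13.9 and 15.4 CPM at day 3, and 7.38, 8.01 and 8.25 CPM at day 15. Every day 3 library lay above every day 15 library, and every day 15 library above every control. The log2 fold against control was 1.56 ± 0.076 at day 3 and 0.67 ± 0.076 at day 15 (SE), which left 43.1% of the day 3 value.

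ZSWIM6 lies at chr5:61332273-61546170 on the plus strand, with 5.501 kb of exons. In T47D it had 11.2, 10.9 and 9.99 CPM in control, 25.7, 25.1 and 24.3 CPM at day 3, and 14.5, 13.5 and 13.9 CPM at day 15. The groups again did not overlap, although the day 15 libraries came close to the controls. The log2 fold against control was 1.22 ± 0.062 at day 3 and 0.38 ± 0.062 at day 15 (SE), so 31.0% of the day 3 value was left. This was the smallest day 3 value among the 5 genes.

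PCDH20 lies at chr13:61409685-61415522 on the minus strand, with 4.778 kb of exons. In T47D it had 7.92, 8.07 and 6.96 CPM in control, 30.7, 31.3 and 30.9 CPM at day 3, and 10.9, 9.88 and 10.2 CPM at day 15. The day 3 libraries lay within 1 CPM of each other and far from both other groups, and the day 15 libraries lay just above the controls. On the log2 scale PCDH20 was above control by 2.01 ± 0.070 at day 3 and 0.43 ± 0.070 at day 15 (SE). At day 15, 21.3% of the day 3 log2 fold was left, the lowest share of the 5 genes.

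**Figure D1:**
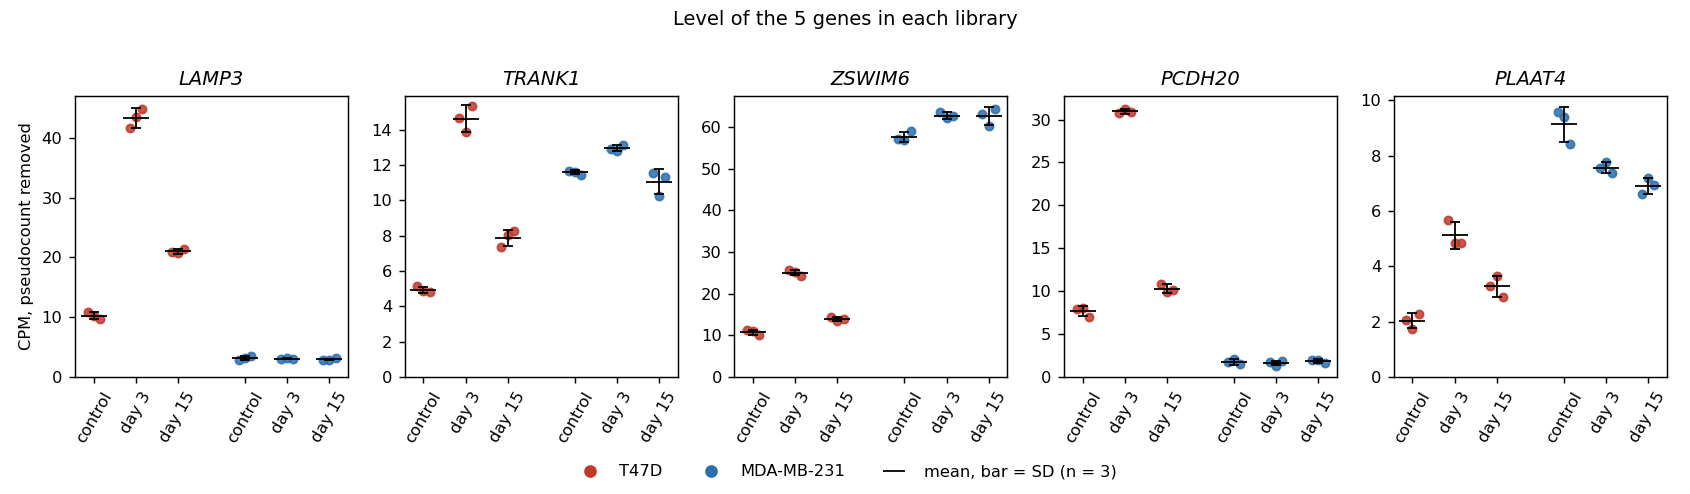
CPM of each gene (y axis, linear, 1 panel a gene) in the 18 libraries, by group along the x axis, with points for libraries, lines for the mean and bars for the SD (n = 3). In T47D the 3 groups of each gene are apart, with day 3 highest, whereas in MDA-MB-231 the groups of LAMP3 and of PCDH20 overlap and PLAAT4 is lower after induction.

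All 5 genes were higher in T47D at day 3 than in control, lower at day 15 than at day 3, and still above control at day 15. These directions were fixed by the choice of the genes except for the last. Over the whole T47D table, 1.88% of genes were called at day 3 against control, 11.2% at day 15 against control and 5.58% at day 15 against day 3 (adjusted p under 0.05 in limma, either direction). Groups that do not overlap, with induction higher, were found for 10% of genes at day 3 and 12.9% at day 15, and 11.9% of genes had all day 15 libraries below all day 3 libraries. Without replicate 2 of day 15 the day 15 log2 folds were 1.05 for LAMP3, 0.66 for TRANK1, 0.40 for ZSWIM6 and 0.46 for PCDH20. RNA of whole cultures cannot tell a change in RNA per cell from a change in the share of cells that express a gene.

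Levels of different genes are comparable only per length of exon. On that scale LAMP3 led in T47D in every group, with 2.68, 11.3 and 5.51 CPM per kb at control, day 3 and day 15. In control ZSWIM6 followed at 1.94 ± 0.11 CPM per kb, then PCDH20 at 1.60 ± 0.13 and PLAAT4 at 1.56 ± 0.21 (SD, n = 3), and PCDH20 and PLAAT4 did not differ beyond their spread. TRANK1 was lowest at 0.404 CPM per kb. At day 3 the order was LAMP3, PCDH20 at 6.48, ZSWIM6 at 4.55, PLAAT4 at 3.94 and TRANK1 at 1.20 CPM per kb, so PCDH20 stood above ZSWIM6 at day 3 and below it in control.

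The course of the 5 genes can be set beside the 33 interferon-induced genes with the same T47D course. The day 3 log2 fold had a median of 1.56 over the 5 genes, with a range of 1.22 to 2.07, and of 2.40 over the 33 genes, with a range of 1.03 to 5.58. Among all 51 genes LAMP3 ranked 24, PCDH20 25, TRANK1 29, PLAAT4 37 and ZSWIM6 42 by the size of that fold. The share of the day 3 log2 fold left at day 15 had a median of 43.1% over the 5 genes and of 55.1% over the 33 genes, whose lowest share was 37.1%. ZSWIM6 and PCDH20 therefore lay below every one of those 33 genes in the share left, and the other 3 lay inside their range. Just below the 2-fold limit, APOL6 kept 24.8% and PARP10 40.2%, so a share under that of ZSWIM6 was also found outside the 5. The 33 are only listed genes over that limit. Under it, the listed STAT2 had log2 folds of 0.71 at day 3 and 0.22 at day 15. MX2 of the list had 0.67 and 0.23, and HERC5 had 0.80 and 0.73. ZNFX1, not on the list, had 0.62 and 0.11, a smaller share left than that of PCDH20. These are descriptions of genes picked from the same libraries, and no test of the difference was made.

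**Figure D2:**
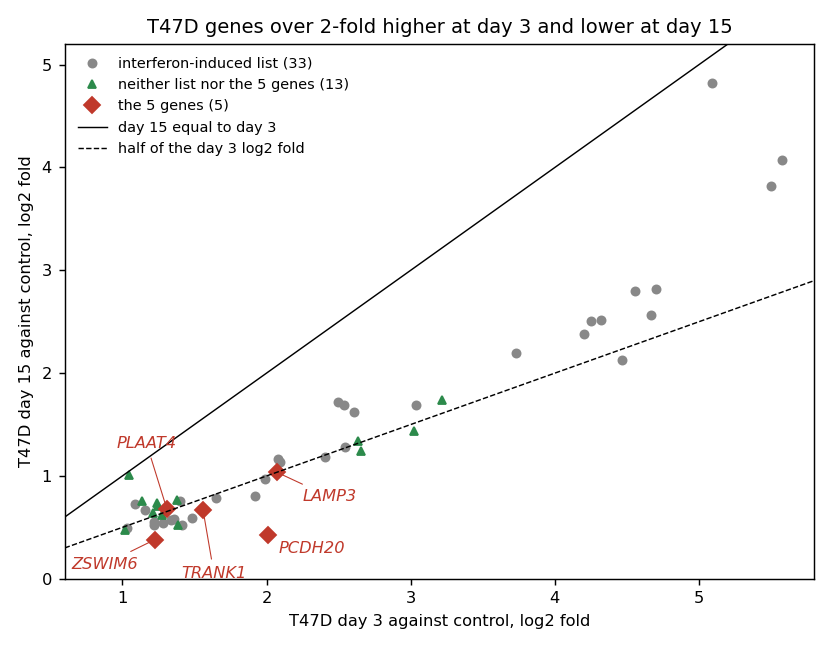
T47D log2 fold against control at day 15 (y axis) and at day 3 (x axis) for the 51 genes over 2-fold higher at day 3 and lower at day 15. Each point is 1 gene and the legend names both lines. LAMP3, PLAAT4 and TRANK1 lie among the interferon-induced genes, while PCDH20 at 2.01 and 0.43 and ZSWIM6 at 1.22 and 0.38 lie under them.

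The 2-fold limit of the choice fell inside a run of genes without a gap. Just above it lay BISPR at a day 3 log2 fold of 1.02 and HERC6 at 1.03, and just below it PARP10 at 0.99 and APOL6 at 0.95. ZSWIM6 at 1.22 was the nearest of the 5 genes to the limit.

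The genes whose T47D pattern was most like that of each of the 5 were found by Pearson's r of the log2 CPM over the 9 libraries, among 11527 genes with a mean log2 CPM of 1 or more. The 9 libraries share 3 group means, so these r values mostly describe one course over 3 groups and are given without a p. LAMP3 was closest to IFIT5 (r = 0.998), an RNA-binding antiviral protein, then to DTX3L, a ubiquitin ligase, and OAS3, an oligoadenylate synthetase. TRANK1 was closest to DDX58 (r = 0.997), the RNA sensor RIG-I, and was also close to SP110, a nuclear body protein. PLAAT4 was closest to ISG15 (r = 0.988), a ubiquitin-like modifier, then to HELZ2 and to the transcription factor IRF7.

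ZSWIM6 was closest to SAMHD1 (r = 0.993), an enzyme that degrades deoxynucleotides, and was also close to LAP3, a leucine aminopeptidase. PCDH20 was closest to LAP3 (r = 0.992), then to the RNA helicase ZNFX1 and to STAT2. The genes like PCDH20 changed less than it did, with day 3 log2 folds of 0.81 for LAP3, 0.62 for ZNFX1 and 0.71 for STAT2, and day 15 log2 folds of 0.21, 0.11 and 0.22. Among the 5 genes themselves r over the T47D libraries ran from 0.903 for PCDH20 and PLAAT4 to 0.994 for LAMP3 and TRANK1. In MDA-MB-231 r over the 10 pairs ran from -0.90 for ZSWIM6 and PLAAT4 to 0.33 for TRANK1 and ZSWIM6.

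RefSeq promoter windows (GRCh38.p14) matched 2 of the 5 genes, TRANK1 and ZSWIM6. They are shown because these are 2 genes with a like T47D course, and capitals mark GC boxes (GGGCGG, here on the opposite strand as CCGCCC) in ZSWIM6. Each window held the 250 bases before the RefSeq start, at chr3:36945055-36945304 on the minus strand for TRANK1 and chr5:61332008-61332257 on the plus strand for ZSWIM6. The RefSeq start of TRANK1 lies 44 bases inside the gene as GENCODE places it, so only the 206 bases at chr3:36945099-36945304, outside the gene in both annotations, are printed for it, 5′ to 3′ toward the gene like those of ZSWIM6.
TRANK1: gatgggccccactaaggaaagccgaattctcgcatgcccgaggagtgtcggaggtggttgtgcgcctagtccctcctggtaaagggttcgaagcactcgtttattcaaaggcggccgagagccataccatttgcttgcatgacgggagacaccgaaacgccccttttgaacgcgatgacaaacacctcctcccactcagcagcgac
ZSWIM6: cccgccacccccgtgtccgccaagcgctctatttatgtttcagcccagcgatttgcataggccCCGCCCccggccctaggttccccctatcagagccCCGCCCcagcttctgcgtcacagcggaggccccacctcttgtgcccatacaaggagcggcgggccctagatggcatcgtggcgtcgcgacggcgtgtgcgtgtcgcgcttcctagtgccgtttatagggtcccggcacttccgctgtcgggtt

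Such windows were searched on both strands for these and for 2 motifs of interferon signalling. The interferon-stimulated response element, searched as GAAA, any 2 bases and GAAA, was in 3.02% of 35116 RefSeq windows and in 16 of the 25 windows found for the 33 interferon-induced genes. The gamma-activated sequence, searched as TTCNNNGAA, was in 6.57% of all windows and in 10 of those 25. The letters of these 2 motifs were not in the 250 bases of TRANK1 or of ZSWIM6. Each motif was also missing from some of those 25 windows. Other spellings and other places were not searched, so absence here does not show that a gene lacks such elements. The E-box CACGTG was in 6.34% of all windows, in 2 of the 25, and once in that of TRANK1, at chr3:36945090-36945095. That place is from 41 to 36 bases before the RefSeq start and inside the gene by the GENCODE coordinates, beyond the printed bases. The GC box GGGCGG was in 42.6% of all windows, in 12 of the 25, and at 2 places in that of ZSWIM6. The motifs overlap in none of these places, and a match in letters does not show binding.

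In MDA-MB-231 none of the 5 genes was over 2-fold higher or lower than control at either time. At day 3 against control none of the 5 passed the test in limma, where 1.77% of all genes did. At an unadjusted p under 0.05 there were 3 (TRANK1, ZSWIM6 and PLAAT4), where 13.6% of all genes passed. The voom method of limma on recovered reads called 0 of the 5, where it called 1.87% of all genes. A fit to only the 6 libraries of the 2 groups called ZSWIM6 and PLAAT4 at day 3 (limma adjusted p = 0.0314 and 0.0441), where it called 3.33% of all genes. With the replicate number as a block both were called too (limma adjusted p = 0.0173 and 0.0332), where 4.45% of all genes were. At day 15 against control 2 of 5 passed, PLAAT4 lower and ZSWIM6 higher, where 8.2% of all genes did. At day 15 against day 3 only TRANK1 passed, lower, where 5.33% of all genes did.

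PLAAT4 had 9.59, 9.38 and 8.42 CPM in MDA-MB-231 control, 7.55, 7.76 and 7.36 CPM at day 3, and 6.62, 7.19 and 6.92 CPM at day 15. All 6 induced libraries lay below all 3 controls, as for 10.1% of genes at day 3 and 12.6% at day 15. The log2 fold against control was -0.27 ± 0.078 at day 3 (SE, limma adjusted p = 0.0766). It was -0.40 ± 0.078 at day 15 (SE, limma adjusted p = 0.00185), so PLAAT4 fell in this line while it was higher in T47D. The day 15 call held in every alternative tried, with log2 folds from -0.45 to -0.36. PLAAT4 averaged 6.91 ± 0.29 CPM at day 15 and 9.13 ± 0.63 CPM in control (SD, n = 3 each), both above the 5.11 ± 0.47 CPM of T47D at day 3, although the 2 tables were scaled separately.

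ZSWIM6 had 57.1, 56.8 and 59.1 CPM in MDA-MB-231 control, 63.6, 62.2 and 62.5 CPM at day 3, and 63.2, 60.3 and 64.4 CPM at day 15. Both induced groups lay above the controls without overlap, as 10.3% of genes did at day 3 and 11.7% at day 15. The log2 fold was 0.12 ± 0.034 at day 3 (SE, limma adjusted p = 0.0692). At day 15 it was again 0.12 ± 0.034 (SE, limma adjusted p = 0.0313), a call lost without control replicate 1 or 2 or day 15 replicate 1 or 3, with adjusted p-values up to 0.153. A fit without trend and robust moderation and a fit to only the groups compared ended it as well. The level in MDA-MB-231 was above that of T47D in every group, across tables scaled separately, and its log2 fold in T47D at day 3 was 1.22.

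TRANK1 had 11.7, 11.6 and 11.5 CPM in MDA-MB-231 control, 12.9, 12.8 and 13.1 CPM at day 3, and 11.6, 10.3 and 11.3 CPM at day 15. The day 3 libraries lay above both other groups, whereas day 15 and control overlapped, and 13% of genes had all day 15 libraries below all day 3 libraries. Against control the log2 fold was 0.16 ± 0.064 at day 3 (SE, limma adjusted p = 0.245) and -0.07 ± 0.064 at day 15 (SE, limma adjusted p = 0.561). Against day 3, day 15 was lower by a log2 fold of -0.23 ± 0.064 (SE, limma adjusted p = 0.0364). Leaving out any induced library or control replicate 2 ended that call, with adjusted p-values from 0.0532 to 0.126, and so did median centring, a fit without trend and robust moderation, and a fit to only the groups compared.

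LAMP3 had 2.82, 3.20 and 3.42 CPM in MDA-MB-231 control, 3.06, 3.14 and 3.03 CPM at day 3, and 2.85, 2.85 and 3.08 CPM at day 15. These 3 groups overlapped. Its log2 fold was -0.03 ± 0.115 at day 3 and -0.10 ± 0.115 at day 15 (SE), with limma adjusted p-values of 0.95 and 0.651.

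PCDH20 had 1.72, 2.10 and 1.45 CPM in MDA-MB-231 control, 1.71, 1.29 and 1.85 CPM at day 3, and 2.01, 1.97 and 1.58 CPM at day 15. The groups overlapped here too, on 58 to 96 reads a library. Its log2 fold was -0.12 ± 0.169 at day 3 and 0.08 ± 0.169 at day 15 (SE), with limma adjusted p-values of 0.836 and 0.822. An SE of this size leaves small differences undetectable at this depth, but it is far below the log2 fold of 2.01 in T47D.

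**Figure D3:**
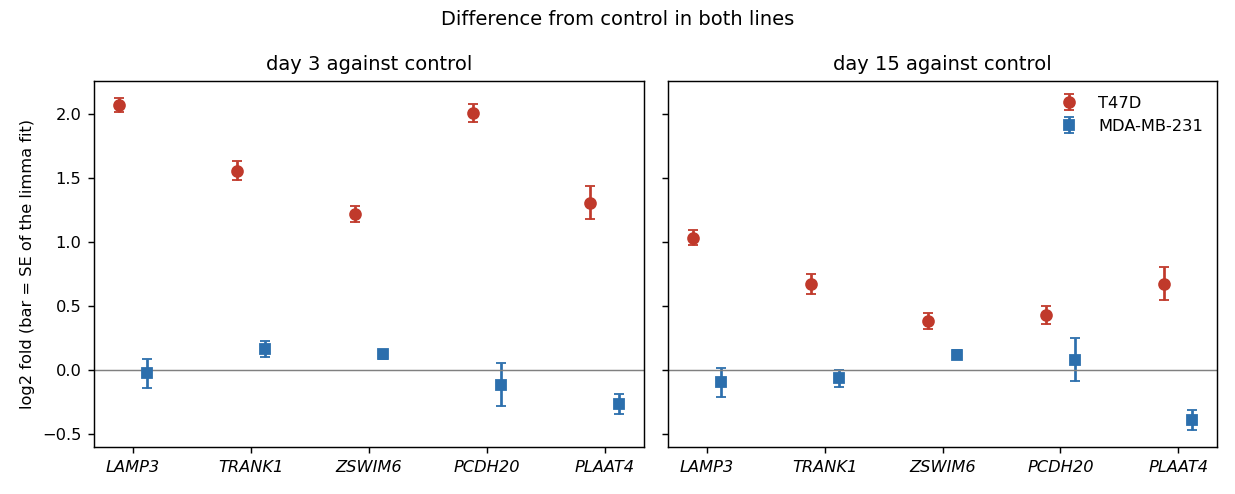
Log2 fold against control (y axis) of the 5 genes (x axis) at day 3 and at day 15, with bars for the SE of the limma fit over 9 libraries a line. T47D values run from 1.22 to 2.07 at day 3 and those of MDA-MB-231 from -0.27 to 0.16.

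Across the 6 groups, LAMP3 and PCDH20 were highest in T47D and low in MDA-MB-231, and the 3 MDA-MB-231 groups of each did not differ beyond their spread. TRANK1 was highest in T47D at day 3, followed by MDA-MB-231 at day 3, and its MDA-MB-231 control and day 15 levels overlapped. Its T47D control was the lowest of the 6. ZSWIM6 and PLAAT4 had all 3 MDA-MB-231 groups above all 3 T47D groups. The tables were scaled line by line, so this order between lines also carries that scaling, and the difference between lines was not tested.

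The interferon-induced list was read in both lines beside the 5 genes. In T47D 41 of its 42 genes rose at day 3, with a median log2 fold of 2.45 against -0.0026 over all genes. The number that rose at day 15 was 40, with a median of 1.23, and 38 fell at day 15 against day 3. In MDA-MB-231 1 of 42 rose at day 3, SAMD9L by a log2 fold of 0.22 (limma adjusted p = 0.00347), a call that 2 of the alternatives ended. At day 15 3 rose and 3 fell there, with TRIM22 at -0.65 and SAMD9L at 0.25 the largest in each direction (limma adjusted p = 0.00194 and 0.000542). This list was chosen with earlier results of these data known.

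No other listed gene of the families of the 5 passed the test at day 3 in T47D. None of the 12 listed genes of lysosomal membranes, LAMP1 and LAMP2 among them, passed the test in limma at day 3, with 2 lower at an unadjusted p under 0.05, which 10.1% of all genes passed in either direction, and 0 called by voom. At day 15 4 of the 12 fell, LAMP1 by a log2 fold of -0.16, LAMP2 by -0.13, the tetraspanin CD63 by -0.22 and the receptor SCARB2 by -0.10 (limma adjusted p from 0.00122 to 0.0433). LAMP1 and CD63 kept the call in every alternative. Without replicate 2 of day 15 8 of the 12 fell, but the share of all genes called was then 25.1%, against 11.2% with it. LAMP3 was higher than control at that time.

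None of 4 listed PLAAT genes passed at day 3 in T47D in limma, at an unadjusted p under 0.05 or by voom. PLAAT2, a phospholipase gene 6.312 kb from PLAAT4, had 0.974 ± 0.25 CPM at day 3 and 1.35 ± 0.25 CPM at day 15, against 0.778 ± 0.15 CPM in control (SD, n = 3). At day 15 its log2 fold of 0.74 ± 0.216 passed (SE, limma adjusted p = 0.04), a call that 8 of the alternatives ended. PLAAT2 and PLAAT4 are related in sequence, and reads shared between them could be assigned to either. PLAAT3, the most abundant of the family in CPM, had 53.3 ± 1.69 CPM at day 3 and 54.0 ± 6.54 CPM at day 15, against 52.1 ± 1.30 CPM in control (SD, n = 3).

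Among 7 other genes with a SWIM zinc finger none passed in T47D at day 3 in limma, with 1 higher at an unadjusted p under 0.05 and 0 called by voom. Among 4 other listed protocadherins outside the clusters none passed at day 3 in limma, at an unadjusted p under 0.05 or by voom. At day 15 PCDH1 rose by a log2 fold of 0.27 ± 0.048 and PCDH7 fell by a log2 fold of -0.82 ± 0.171 (SE, limma adjusted p = 0.0021 and 0.0064). Both calls held when any library was left out.

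Of 7 listed genes linked to retinoids, ALDH1A3, which makes retinoic acid, fell at day 3 in T47D by a log2 fold of -0.28 ± 0.068 (SE, limma adjusted p = 0.049), a call that 9 of the alternatives ended. At day 15 3 fell and 1 rose, with CYP26B1, which degrades retinoic acid, at -1.32 ± 0.143 and the carrier CRABP2 at 0.24 ± 0.039 (SE, limma adjusted p = 2.87e-05 and 0.00102). None of 17 genes of the unfolded protein and ATF4 responses passed in T47D at day 3 in limma, and voom called 0. At an unadjusted p under 0.05 4 were lower, where 10.1% of all genes passed in either direction. At day 15 6 of the 17 fell, where 11.2% of all genes were called in either direction. DDIT3 was among them, with a log2 fold of -0.47 ± 0.063 (SE, limma adjusted p = 0.000205). The number that fell was 5 by voom and 3 to 9 with a library left out. The highest came without replicate 2 of day 15, where 25.1% of all genes were called. The part of these retinoid and stress genes in the levels of LAMP3 and PLAAT4 was not tested.

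LAMP3 marks dendritic cells, so leukocyte markers were read in the same libraries. Of 11 markers of dendritic cells and other leukocytes 2 were listed in T47D (CD83 and CD14). Their summed level lay between 2.58 and 2.83 CPM after 3 days and between 2.47 and 3.30 CPM after 15 days, against 2.16 to 2.65 CPM in control. The general leukocyte marker PTPRC was not among the listed T47D genes, and neither of the 2 passed the test in limma at either time, at an unadjusted p under 0.05 or by voom. In MDA-MB-231 the 3 listed markers summed to between 8.88 and 11.3 CPM over all libraries.

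The nearest listed gene on each side of the 5 genes was read as well. In T47D these lay between 6.019 kb (MCCC1, beside LAMP3) and 2957 kb (PDCD6IP, beside TRANK1) away. The closest was SMIM15 at 170 kb for ZSWIM6 and TDRD3 at 836 kb for PCDH20. Genes so far away say little about the near surroundings. None of these 10 neighbours passed the test at day 3 in T47D in limma, with log2 folds from -0.09 for MCCC1, beside LAMP3, to 0.48 for MCF2L2 on its other side. MCCC1 fell at day 15 in T47D by a log2 fold of -0.34 ± 0.039 (SE, limma adjusted p = 4.77e-05). In MDA-MB-231 LGALS12, a galectin gene 20.036 kb from PLAAT4, had a log2 fold of -0.46 ± 0.129 at day 3 (SE, limma adjusted p = 0.069). It fell at day 15 by -0.88 ± 0.129 (SE, limma adjusted p = 5.39e-05), in the same direction as PLAAT4. PLAAT3 on the other side of PLAAT4 in that line had a day 15 log2 fold of -0.13 ± 0.046 (SE, limma adjusted p = 0.0773).

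**Figure D4:**
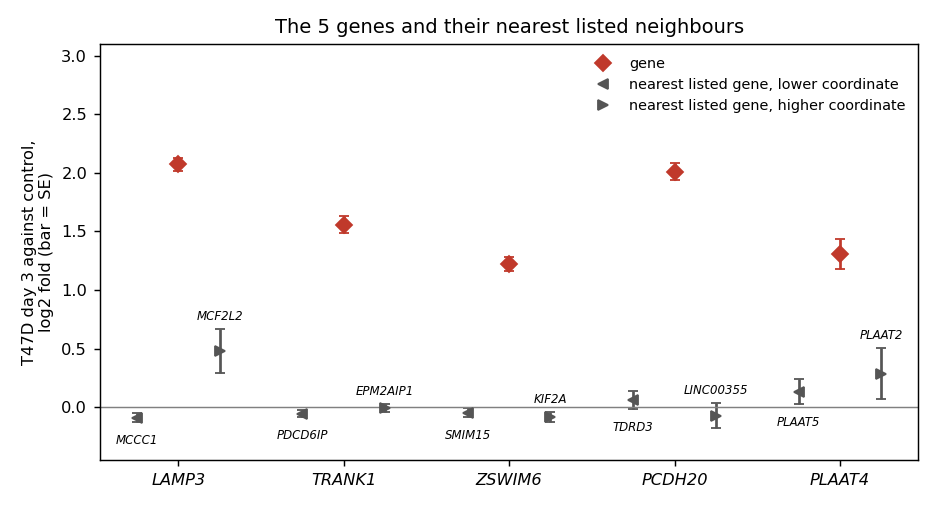
T47D log2 fold at day 3 against control (y axis) of the 5 genes and of the nearest listed gene on each side (x axis), with bars for the SE. The 5 genes lie between 1.22 and 2.07 and their neighbours between -0.09 and 0.48.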

How the data were processed

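RNA-seq of 18 libraries was read from 2 tables, 1 a line, which the authors deposited as log2 CPM values per gene, made with STAR, featureCounts and limma on GRCh38.p13 per the submitters' processing notes; their versions were not given in the sources used. The values hold a constant of 3 reads at mean depth, and with it removed 100% of them were whole reads within 0.1 read. Groups follow the sample labels; the series' text also speaks of resistant lines, which the labels do not name. limma 3.58.1 (R 4.3.3) with trend and robust moderation was fitted to each line's 9 libraries with group means, and p-values were Benjamini-Hochberg adjusted over all genes. A gene is called at an adjusted p under 0.05. The tests were tried on simulated data. The genes, lists and tests were chosen with earlier results of these data known. Genes named beside the 5 were those most like them (3 each), nearest the 2-fold limit, nearest on the genome, in their families, or called in a list; some of these are not reported here. Promoter windows came from RefSeq and gene positions from GENCODE on GRCh38, without conversion. Alternatives were median centring, a constant of 0.5 reads, a mean log2 CPM of 1 or more, no trend or robust moderation, the replicate number as a block, each library left out, a fit to only the 2 groups compared, and voom on recovered reads.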

Additional observations from a re-analysis of the deposited data

Results flagged for a closer look

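PLAAT4 moved in opposite directions in the 2 lines, in every library. Its log2 fold at day 3 against control was 1.31 in T47D and -0.27 in MDA-MB-231, and at day 15 it was 0.67 in T47D and -0.40 in MDA-MB-231. The difference between the lines was not tested, and the T47D direction was part of how the gene was chosen.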

How the results depend on the processing

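No log2 fold of the 5 genes in T47D changed direction in any alternative, and with 1 library left out their median was 1.52 to 1.60 at day 3 against control (1.56 over all libraries), 0.57 to 0.69 at day 15 against control (0.67) and -0.92 to -0.86 at day 15 against day 3 (-0.89). In MDA-MB-231 the number of the 5 genes called depended on the settings. The share of all genes called in the same setting, given in brackets, moved as well. At day 3 against control the number was 0 (1.77%). It was 0 to 1 with a library left out (0.832% to 2.92%) and 2 when only the groups compared were fitted (3.33%). At day 15 against control it was 2 (8.2%), with 1 to 2 when a library was left out (3.19% to 13.3%). It was 1 without trend and robust moderation (1.62%), and 1 when only the groups compared were fitted (5.42%). At day 15 against day 3 it was 1 (5.33%), with 0 to 1 when a library was left out (0.867% to 11.6%). It was 0 under median centring (5.77%), without trend and robust moderation (0.224%), and when only the groups compared were fitted (4.72%).

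Replicate numbers showed no pairing of the T47D libraries. Deviations there correlated at -0.41 to 0.07 for same-numbered libraries and -0.27 to 0.39 for different-numbered ones. In MDA-MB-231 the ranges were -0.03 to 0.28 for same numbers and -0.26 to 0.19 for different numbers. These overlapping ranges do not settle whether the numbers pair libraries in that line. With the replicate number as a block, 2 of the 5 genes were called in MDA-MB-231 at day 3 (ZSWIM6 and PLAAT4), where 4.45% of all genes were. The block gave 2 at day 15, where 15.9% of all genes were called, and 1 at day 15 against day 3, where 12.5% were.

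Counts over the whole tables moved more. In T47D 277 genes were called at day 3 (182 to 746 with a library left out), 1659 at day 15 (930 to 3705) and 824 at day 15 against day 3 (403 to 2604), and the highest of each came without day 15 replicate 2. In MDA-MB-231 the counts were 253 (119 to 418), 1173 (457 to 1897) and 763 (124 to 1664). Over the other alternatives they were 210 to 921, 996 to 1657 and 463 to 820 in T47D, and 63 to 637, 232 to 2273 and 32 to 1788 in MDA-MB-231. PCDH20 in MDA-MB-231 was below the limit of the mean log2 CPM of 1. The voom fit was chosen after seeing the data, and the planned count models were not run because the tables hold log2 values.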
